A study of Mus musculus with 9 samples.

Results

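The chemokines Ccl2, Ccl5, Ccl7, Ccl20, Cxcl1, Cxcl5, Cxcl10, Cxcl12, Cxcl16 and Cx3cl1 were followed in striatal cell lines that carry the Huntington disease (HD) mutation. They were taken by symbol from the gene count table, in which they are 10 of 36410 listed genes. The 9 libraries are poly(A)-selected, strand-specific RNA-seq from 3 immortalized mouse lines of strain C57/BL6, with 3 replicates each, made from knock-in embryos. Control cells (STHdhQ7/Q7) carry Htt exon 1 with 7 glutamine codons on both alleles, HD-het cells (STHdhQ7/Q111) have 111 on one allele, and HD-homo cells (STHdhQ111/Q111) have 111 on both. No library had a treatment or a time point. Each genotype is represented by 1 line, so genotype and line cannot be told apart. Nothing in the labels says that replicates were separate cultures, so p values measure only the spread between these libraries, which may be technical.

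Chemokines are small proteins that guide migrating cells along a gradient by binding G protein-coupled receptors, most of them on leukocytes. They are classed by the spacing of their first pair of cysteines, which are adjacent in the CC class, separated by a single residue in the CXC class and by several in CX3C. Some are made at steady state and hold cells in place, as Cxcl12 does in the developing brain. Others are transcribed in response to NF-kappaB or interferon signaling and draw monocytes, T cells or neutrophils. In brain, Cx3cl1 is known mainly as a neuronal product read by microglia through Cx3cr1.

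The cysteine motif that defines the classes is shown for each gene as 30 bases of coding sequence from GENCODE vM21 transcripts, 5′ to 3′, with the cysteine codons in capitals. All 10 windows lie in exon 2 of the longest coding transcript.
Ccl2, chr11:82036494-82036523, plus strand: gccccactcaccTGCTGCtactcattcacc
Ccl7, chr11:82046526-82046555, plus strand: aatgcatccacaTGCTGCtatgtcaagaaa
Ccl5, chr11:83529230-83529259, minus strand: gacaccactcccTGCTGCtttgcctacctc
Ccl20, chr1:83117801-83117830, plus strand: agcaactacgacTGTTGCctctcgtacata
Cxcl1, chr5:90891484-90891513, plus strand: aatgagctgcgcTGTcagTGCctgcagacc
Cxcl5, chr5:90759715-90759744, plus strand: acggagctgcgtTGTgttTGCttaaccgta
Cxcl10, chr5:92348172-92348201, minus strand: aggacggtccgcTGCaacTGCatccatatc
Cxcl12, chr6:117171496-117171525, plus strand: ctgagctaccgaTGCcccTGCcggttcttc
Cxcl16, chr11:70459118-70459147, minus strand: gtcgctggaagtTGTtctTGTgatcgtacc
Cx3cl1, chr8:94778039-94778068, plus strand: ggcatgacgaaaTGCgaaatcatgTGCgac
Coordinates are GRCm38. The codons are adjacent in the 4 CC genes, have 1 codon between them in the 5 CXC genes and 3 in Cx3cl1. Reads of the members could be assigned without ambiguity over nearly all of their length. For 9 members no 50-base stretch of the longest coding transcript occurs in a transcript of another gene, and for Cxcl5 0.871% of the stretches do. No annotated gene overlaps a member on the same strand. On the opposite strand Gm17268 overlaps Ccl2, Art3 overlaps Cxcl10 and Zmynd15 overlaps Cxcl16, and whether the counting used strand is not given in the sources used here, so reads of these partners may not be told apart.

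Library totals ran from 29507665 to 41197931 counts, and a floor of 3 counts corresponds to 0.0710 to 0.101 CPM (counts per megaread, after TMM normalization). The labelled striatal identity has little support among markers of mature striatal neurons. Drd1 had 0 counts in all 9 libraries, Drd2 at most 1 and Ppp1r1b at most 17, and the summed level of the 8 markers was at most 4.12 CPM. Of the 3 tested, Penk was 1.88-fold higher in HD-homo and 2.73-fold lower in HD-het cells than in control cells (edgeR adjusted p = 0.029 and 0.0067). Bcl11b was 3.37-fold higher in HD-het cells, at 17, 14 and 26 counts against 9, 4 and 3 in control libraries. It was kept by the expression filter only through the HD-het libraries, so no p is given.

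Of 10 markers of microglia and macrophages, Aif1, Adgre1 and Tyrobp had 0 counts throughout, and the summed level was 14.3 to 18.0 CPM in control, 45.8 to 57.8 in HD-het and 15.7 to 17.05 in HD-homo libraries, mostly from Tmem119. Of the 4 tested, 1 was higher and 1 lower in HD-homo cells than in control cells, and 2 were higher and 1 lower in HD-het cells. Among all tested genes 58.6% passed an edgeR adjusted p under 0.05 in the former comparison and 65.1% in the latter. Csf1r was 3.74-fold higher in HD-homo cells (edgeR adjusted p = 3.8e-05), Tmem119 and Cd68 were 3.49-fold and 1.91-fold higher in HD-het cells (edgeR adjusted p = 2.1e-07 and 0.0030), and P2ry12, at 10 to 18 counts in control libraries, was at 2 to 8 in HD-het and 0 to 4 in HD-homo libraries. P2ry12, the marker counted as lower, was kept for testing only through the control libraries and so had to come out lower elsewhere. The T cell markers Cd3e and Cd3g were at 0 in every library, and the summed T cell list stayed between 0.419 and 0.840 CPM. The endothelial list stayed between 0.839 and 1.66 CPM, with Cldn5 at 0.

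The astrocyte list summed to 2.52 to 2.67 CPM in control, 0.620 to 1.26 in HD-het and 12.6 to 17.8 in HD-homo libraries. Its 1 tested marker of 6, Slc1a3, was 6.51-fold higher in HD-homo and 3.48-fold lower in HD-het cells than in control cells (edgeR adjusted p = 9.4e-07 and 2.2e-04). At a mean of 14.6 CPM, Slc1a3 made up most of the HD-homo sum. Gfap had 6, 4 and 6 counts in control and 1, 1 and 2 in HD-homo libraries, and Aldh1l1 7, 2 and 6 and 0, 1 and 2. Aqp4, S100b and Gjb6 had at most 2 counts in any library. The list of neuronal markers summed to 139 to 171, 109 to 116 and 91.8 to 115 CPM. Of its 3 tested markers, 1 was lower in HD-homo cells than in control cells. In HD-het cells 1 was higher and 1 lower. Stmn2 was 19.5-fold lower in HD-homo and 19.8-fold lower in HD-het cells than in control cells (edgeR adjusted p = 9.8e-10 and 2.7e-09). Tubb3 was the higher marker, at means of 50.8 CPM in HD-het and 42.4 in control cells (edgeR adjusted p = 0.0098). Map2 passed in neither HD-homo nor HD-het against control cells (edgeR adjusted p = 0.67 and 0.73). The 4 tested of 6 fibroblast markers were all higher in HD-homo cells than in control cells, and in HD-het cells 1 was higher and 2 were lower. Of all tested genes 29.6% were higher and 28.9% lower in HD-homo cells, and 33.8% and 31.4% in HD-het cells. Col1a2 was 20.4-fold higher in HD-homo and 23.3-fold lower in HD-het cells (edgeR adjusted p = 1.8e-11 and 1.3e-10). Summed levels were 2115 to 2815 CPM in control, 6340 to 7799 in HD-het and 5815 to 6332 in HD-homo libraries. Col1a1 alone had a mean of 7097 CPM in HD-het cells. Of 6 neural progenitor markers, 5 were lower and 1 was higher in HD-homo cells than in control cells. Their summed levels were 5895 to 6357, 5324 to 5829 and 4158 to 4576 CPM. Vim made up most of these sums, at means of 5383 CPM in control, 4568 in HD-het and 4264 in HD-homo cells. Pax6 was 242-fold, Sox2 23.4-fold and Nes 18.5-fold lower in HD-homo cells than in control cells (edgeR adjusted p = 5e-12, 1.2e-11 and 9.5e-10). In HD-het cells 3 markers were higher and 2 lower than in control cells, with Fabp7 20.8-fold higher (edgeR adjusted p = 8.1e-07). The part of these markers in the chemokine differences was not tested.

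Seen across the lines, the chemokines fell into different orders. Per kb of the longest coding transcript, control cells held mainly Ccl2 and Cx3cl1, and HD-het cells mainly Cx3cl1. In HD-homo cells Cxcl1, Ccl5 and Cxcl10 stood beside Ccl2 and Ccl7. These orders rest on the length measure, and with the coding length Cxcl12 came first in control cells. In HD-homo against control cells, 6 of the 10 members were higher and 1 was lower at an edgeR adjusted p under 0.05. The background is large, since 58.6% of the 13508 tested genes passed this threshold, 29.6% as higher and 28.9% as lower. In HD-het against control cells 1 member was higher and 5 were lower, where 65.1% of tested genes passed, 33.8% as higher and 31.4% as lower. Between the HD lines all 10 members passed, 7 higher and 3 lower in HD-homo cells, where 71.6% of tested genes passed, 36.0% as higher and 35.6% as lower. The median log2 fold change of the members was 1.00, -1.38 and 4.40 in the same order, against medians of 0.01, 0.03 and 0.00 over all tested genes. Libraries of the compared lines did not overlap for 6 higher and 1 lower member in HD-homo against control cells (65.3% of all tested genes, 32.7% higher and 32.6% lower), for 3 higher and 5 lower members in HD-het against control cells (74.0%, 38.7% higher and 35.4% lower), and for 7 higher and 2 lower members between the HD lines (72.8%, 36.5% higher and 36.3% lower). The members were chosen with such values known, so these counts are a description. They include Ccl5, which was kept for testing only through the HD-homo libraries and so had to come out higher there, and Cxcl5, which would not have been kept without them. Ccl20, among the lower members between the HD lines, would not have been kept without the HD-het libraries. In bulk libraries a smaller share of producing cells and less RNA per cell cannot be told apart.

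**Figure D1:**
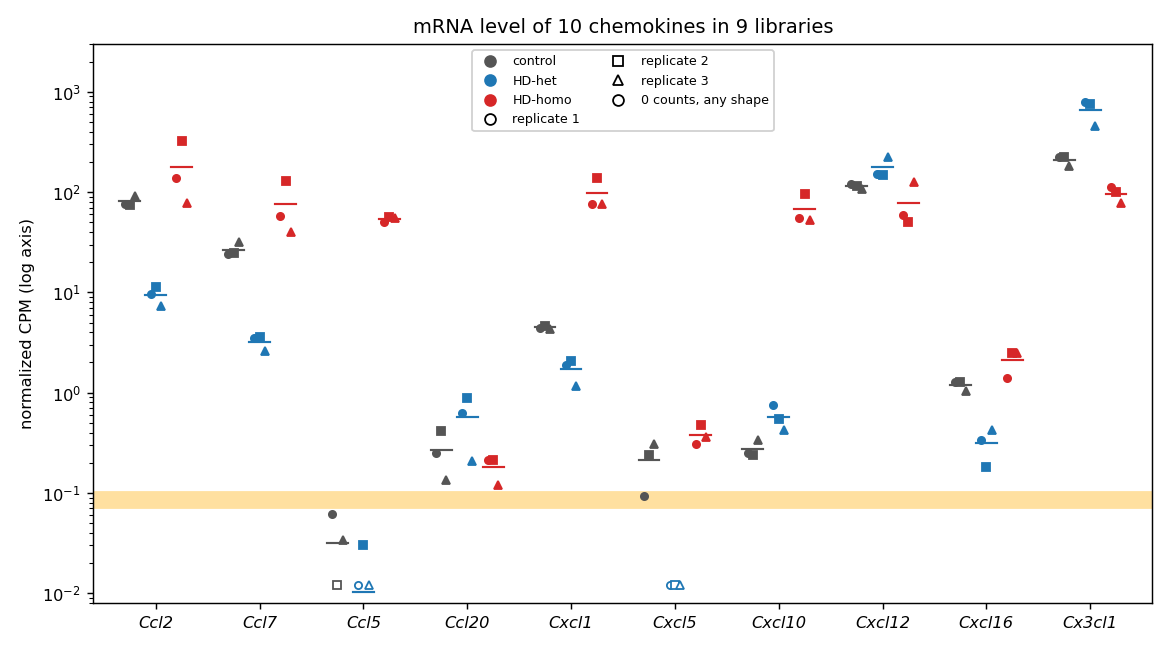
Normalized CPM (log axis) of each chemokine in each library, with color for the line, shape for the replicate number and a bar for the mean of 3. Open symbols at the bottom are libraries with 0 counts, and the band is the range of 3 counts, 0.0710 to 0.101 CPM. The HD-homo libraries stand far above the others for Ccl5, Cxcl1 and Cxcl10, and the HD-het libraries stand lowest for Ccl2, Ccl7 and Cxcl1 and highest for Cx3cl1.

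Ccl2 and Ccl7 are monocyte-attracting ligands of Ccr2, encoded side by side on chromosome 11 with 8258 bases between them. Ccl2 (chr11:82035571-82037453) was at 76.4, 74.5 and 92.4 CPM in control, 9.62, 11.3 and 7.31 in HD-het and 138, 321 and 77.01 in HD-homo libraries. Ccl7 (chr11:82045712-82047525) was at 24.0, 24.4 and 31.8 CPM in control, 3.53, 3.57 and 2.58 in HD-het and 57.6, 130 and 40.0 in HD-homo libraries. For both genes every HD-het library lay below every other library, and HD-homo replicate 2 was the highest of all 9. Ccl2 was 8.62-fold lower in HD-het cells than in control cells (log2 fold change -3.11 ± 0.44, SE; edgeR adjusted p = 8.5e-05), and Ccl7 was 8.30-fold lower (-3.05 ± 0.41; edgeR adjusted p = 6.1e-05). Against HD-het cells, HD-homo cells had 19.0-fold more Ccl2 and 23.5-fold more Ccl7 mRNA (4.25 ± 0.45 and 4.56 ± 0.42; edgeR adjusted p = 6.6e-06 and 1.9e-06), and without HD-homo replicate 2 these log2 fold changes were 3.52 and 3.92.

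The rise over control cells was smaller, and for Ccl2 it depended on single libraries. Ccl7 was 2.83-fold higher in HD-homo cells (1.51 ± 0.34; edgeR adjusted p = 0.0028) with no overlap, and its log2 fold change was 0.87 without HD-homo replicate 2, still past the threshold at an edgeR adjusted p = 0.0011. Ccl2 was 2.20-fold higher (1.14 ± 0.38; edgeR adjusted p = 0.025), but its groups overlapped. Without HD-homo replicate 2 its log2 fold change was 0.41 (edgeR adjusted p = 0.12), and the adjusted p was 0.070 without control replicate 1 and 0.074 without control replicate 2. The ratio of Ccl2 to Ccl7 CPM was 3.04 ± 0.14 (SD, n = 3) in control, 2.91 ± 0.23 in HD-het and 2.26 ± 0.29 in HD-homo libraries. Every HD-homo ratio, from 1.93 to 2.47, lay below every ratio of the other lines. With 3 against 3 libraries a permutation test of this ratio could not pass the threshold, so none is given. The remaining CC genes of this cluster, Ccl11, Ccl12, Ccl8 and Ccl1, had mean levels of at most 0.186 CPM in any line.

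Ccl5 (chr11:83525778-83530518, minus strand), a T cell and monocyte attractant, was close to absent outside HD-homo cells. It had 2, 0 and 1 counts in control libraries, 0, 1 and 0 in HD-het libraries, and 1631, 2385 and 1868 in HD-homo libraries. Set against the floor of 3 counts per library, the HD-homo level was at least 571-fold that of control cells and at least 610-fold that of HD-het cells. Ccl5 was kept by the expression filter only through the HD-homo libraries, so these differences had to be found and no p is given. No difference between control and HD-het cells was detectable at this depth. The mean over HD-homo libraries was 54.1 ± 3.5 CPM (SD, n = 3), and the coefficient of variation was 6.54%, against 17.5% to 70.9% for the other members in the same libraries.

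Ccl9 lies next to Ccl5 in a second CC cluster on chromosome 11 and binds Ccr1. It was at 2.08, 2.32 and 1.99 CPM in control, 0.423, 0.732 and 1.11 in HD-het and 13.3, 16.2 and 15.4 in HD-homo libraries, 7.01-fold higher in HD-homo cells than in control cells (edgeR adjusted p = 2.9e-07). The rest of that cluster was close to silent, with 0 counts of Ccl3 in all libraries and Ccl4 seen in HD-homo libraries alone, at a mean of 0.212 CPM.

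Cxcl1 (chr5:90891241-90893115) and Cxcl5 (chr5:90759360-90761624) attract neutrophils through Cxcr2 and lie 129616 bases apart in the CXC cluster of chromosome 5. Cxcl1 was at 4.45, 4.61 and 4.36 CPM in control, 1.89, 2.07 and 1.17 in HD-het and 75.4, 138 and 76.7 in HD-homo libraries, with no overlap between any lines. It was 21.7-fold higher in HD-homo cells than in control cells (log2 fold change 4.44 ± 0.25, SE; edgeR adjusted p = 5.8e-08), 2.62-fold lower in HD-het cells (-1.39 ± 0.32; edgeR adjusted p = 0.0026) and 56.6-fold higher in HD-homo cells than in HD-het cells. Cxcl5 stayed near the floor, with 3, 8 and 9 counts in control, 0 in each HD-het and 10, 20 and 12 in HD-homo libraries. It was at least 2.39-fold lower in HD-het cells than in control cells (edgeR adjusted p = 0.0011), while HD-homo and control cells differed by 1.79-fold without passing the threshold (edgeR adjusted p = 0.10; 95% interval of the log2 fold change -0.08 to 1.80).

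Ppbp, the platelet chemokine that also acts on Cxcr2, lies 6893 bases downstream of Cxcl5. Its counts were 10, 6 and 2 in control, 2, 3 and 0 in HD-het and 7630, 9978 and 17213 in HD-homo libraries. The mean of 328 CPM in HD-homo cells was 1765-fold above control cells. Without the HD-homo libraries Ppbp would not have been kept by the filter, so no p is given. The other genes of the cluster, Pf4, Cxcl3, Cxcl15 and Cxcl2, had mean levels of at most 0.114 CPM in any line.

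Cxcl10 (chr5:92346638-92348889, minus strand) is an interferon-inducible attractant of T cells that carry Cxcr3. Its levels were 0.249, 0.238 and 0.338 CPM in control, 0.761, 0.549 and 0.419 in HD-het and 55.6, 96.4 and 52.6 in HD-homo libraries. The HD-homo level was 248-fold above control cells (7.95 ± 0.34; edgeR adjusted p = 5.7e-09) and 118-fold above HD-het cells. HD-het libraries all lay above control libraries, by 2.10-fold, which did not pass the threshold (1.08 ± 0.61; edgeR adjusted p = 0.14). The edgeR adjusted p was 0.0065 without HD-homo replicate 2. With only control and HD-het cells fitted it passed, but there the filter would not have kept Cxcl10 without the HD-het libraries, so no p is given. Its neighbors Cxcl9 and Cxcl11 bind the same receptor. Cxcl9 had a mean of at most 0.0456 CPM in any line, and Cxcl11 was at 0.766, 1.04 and 1.16 CPM in HD-homo libraries, 6.78-fold above control cells. Cxcl11 too was kept by the filter only through HD-homo libraries, so no p is given.

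The 250 bases upstream of the RefSeq start site (GRCm38.p6) are printed for Cxcl10 and Cxcl1, which differed strongly between the lines, and for Ccl20, which stayed low in all 3. Capitals mark matches to the NF-kappaB motif (GGG, 2 bases of any kind, TT, 1 base of any kind, CC) and to the interferon-stimulated response element (ISRE) motif (GAAA, 2 bases of any kind, GAAA), on either strand.
Cxcl10, chr5:92348890-92349139, minus strand: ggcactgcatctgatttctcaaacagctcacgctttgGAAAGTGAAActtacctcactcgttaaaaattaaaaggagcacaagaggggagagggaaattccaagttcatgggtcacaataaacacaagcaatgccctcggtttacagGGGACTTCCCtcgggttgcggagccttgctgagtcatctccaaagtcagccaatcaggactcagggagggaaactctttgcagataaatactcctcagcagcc
Cxcl1, chr5:90890995-90891244, plus strand: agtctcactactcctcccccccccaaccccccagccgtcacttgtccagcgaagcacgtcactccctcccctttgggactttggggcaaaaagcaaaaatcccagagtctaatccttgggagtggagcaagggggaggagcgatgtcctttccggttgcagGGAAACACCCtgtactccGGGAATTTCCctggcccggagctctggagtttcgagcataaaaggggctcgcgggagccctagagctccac
Ccl20, chr1:83116516-83116765, plus strand: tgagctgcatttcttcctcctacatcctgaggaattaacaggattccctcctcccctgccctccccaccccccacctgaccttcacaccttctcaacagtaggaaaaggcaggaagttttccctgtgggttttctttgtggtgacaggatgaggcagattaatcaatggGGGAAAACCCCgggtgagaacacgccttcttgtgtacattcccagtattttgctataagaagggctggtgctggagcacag
Cxcl10 holds 1 NF-kappaB match that begins 103 bases before the start and 1 ISRE match that begins 213 bases before it. Cxcl1 holds 2 NF-kappaB matches, at 89 and 71 bases, and Ccl20 holds 2 that overlap each other, at 81 and 80 bases. Promoters of 5 members were in the table used here, from 250 bases before to 50 after the start. The NF-kappaB motif was in 3 of these 5 windows and in 4.79% of all 32851 promoter windows, the ISRE motif was in 1 of 5 and in 3.44% of all, and the TATA box motif TATAAA was in 1 of 5, that of Cx3cl1, and in 13.6% of all. Cxcl12 had none of the 3 motifs in this window. The matches are letters found in the genome, not measured binding.

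Ccl20 (chr1:83116766-83119167), a ligand of Ccr6, had 8, 14 and 4 counts in control, 22, 29 and 7 in HD-het and 7, 9 and 4 in HD-homo libraries. These groups overlapped in all comparisons. Only HD-homo against HD-het cells passed the threshold (3.13-fold lower, log2 fold change -1.61 ± 0.53, SE), and not without HD-het replicate 2 (-1.17). Without the HD-het libraries Ccl20 would not have been kept by the filter, so no p is given for comparisons with them. Against control cells the edgeR adjusted p was 0.46 for HD-homo cells. HD-het cells did not pass against control cells in the main fit, but did without HD-het replicate 3.

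Cx3cl1 and Cxcl16 are made as membrane proteins with the chemokine domain on a mucin stalk, and Adam10 and Adam17 release it. Cx3cl1 (chr8:94772009-94782427) was at 222, 224 and 180 CPM in control, 784, 753 and 453 in HD-het and 112, 100 and 78.35 in HD-homo libraries, with no overlap. It was 3.18-fold higher in HD-het cells than in control cells (1.67 ± 0.19; edgeR adjusted p = 2e-05), 2.16-fold lower in HD-homo cells than in control cells (-1.11 ± 0.19; edgeR adjusted p = 5e-04) and 6.85-fold lower in HD-homo cells than in HD-het cells. At the threshold it was the only member with more mRNA in HD-het cells than in control cells, and the only one with less in HD-homo cells.

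Cxcl16 (chr11:70453983-70459984, minus strand) was at 1.28, 1.28 and 1.05 CPM in control, 0.338, 0.183 and 0.419 in HD-het and 1.41, 2.51 and 2.48 in HD-homo libraries. HD-het cells had 3.83-fold less than control cells (-1.92 ± 0.34; edgeR adjusted p = 4.2e-04) and HD-homo cells 6.80-fold more than HD-het cells. HD-homo cells had 1.78-fold more than control cells (0.83 ± 0.26; edgeR adjusted p = 0.017), a call lost without control replicate 3 (edgeR adjusted p = 0.060) or HD-homo replicate 2 (0.059). Adam10 was 1.43-fold higher in HD-het cells than in control cells (edgeR adjusted p = 3.7e-05) and at 0.974 of the control level in HD-homo cells (edgeR adjusted p = 0.65). Adam17 was at 56.6, 60.4 and 54.0 CPM in control, 69.8, 67.4 and 63.7 in HD-het and 41.4, 46.8 and 38.9 in HD-homo libraries, with no overlap. It was 1.17-fold higher in HD-het cells than in control cells (edgeR adjusted p = 0.020) and 1.35-fold lower in HD-homo cells (edgeR adjusted p = 6.5e-04).

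Cxcl12 (chr6:117168535-117181367), the ligand of Cxcr4 and Ackr3, was at 121, 115 and 108 CPM in control, 153, 149 and 226 in HD-het and 58.6, 50.7 and 127 in HD-homo libraries. HD-het libraries all lay above control libraries, by 1.54-fold (0.62 ± 0.29; edgeR adjusted p = 0.077). HD-homo replicates 1 and 2 lay below every other library, but replicate 3 lay above the control libraries, and the difference from control cells did not pass (-0.54 ± 0.29; edgeR adjusted p = 0.13). Without HD-homo replicate 3 the log2 fold change from control was -1.07 (edgeR adjusted p = 2e-04) for HD-homo cells, and the edgeR adjusted p for HD-het cells was 0.0022, or 0.037 without HD-homo replicate 2. Between the HD lines Cxcl12 was 2.24-fold lower in HD-homo cells (-1.16 ± 0.29; edgeR adjusted p = 0.0036).

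**Figure D2:**
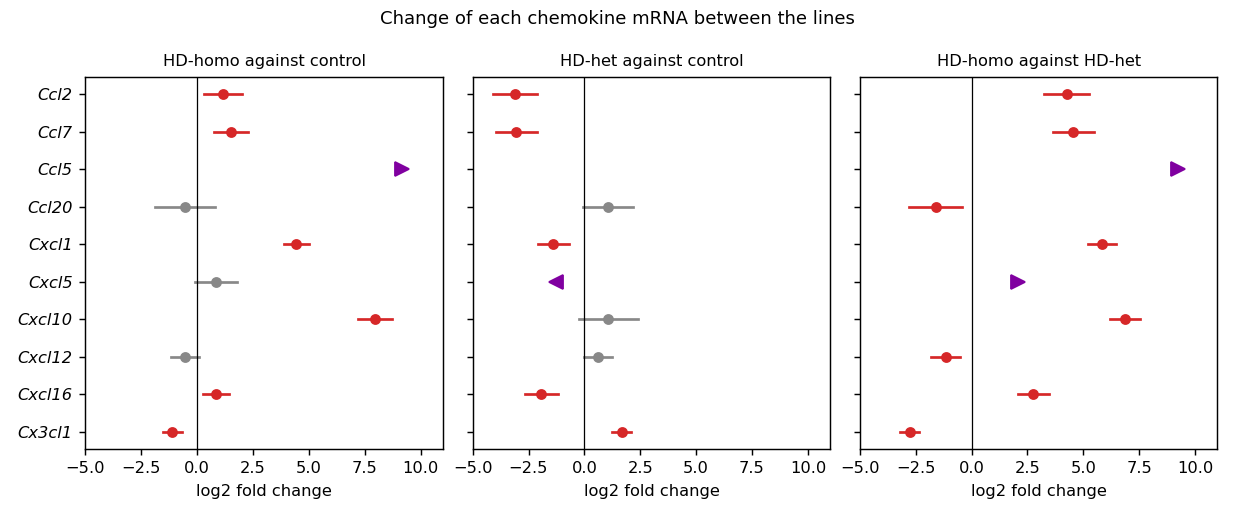
Log2 fold change of each chemokine in the 3 comparisons, as points with 95% intervals, red where the edgeR adjusted p was under 0.05 and gray where it was not. Purple arrowheads stand at the lower bound of a change where a line had 3 counts or fewer in every library, and Ccl5 has no point for HD-het against control because both lines were at the floor. Ccl2, Ccl7, Cxcl1 and Cxcl16 lie right of 0 in the left panel and left of 0 in the middle panel, and Cx3cl1 lies the other way.

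Levels of different genes were compared as CPM per kb of the longest coding transcript. In control cells Ccl2 was first at 99.7 ± 12.1 CPM per kb (SD, n = 3), followed by Cx3cl1 at 62.9 ± 7.5, Ccl7 at 33.4 ± 5.5, Cxcl12 at 20.4 ± 1.1, Cxcl1 at 4.69 ± 0.13 and Cxcl16 at 0.445 ± 0.049, each apart from its neighbor in every library. Cxcl10, Ccl20, Cxcl5 and Ccl5 followed at 0.203 or less, with overlapping libraries. The lead of Ccl2 rests on the length measure, since Cxcl12 came first with the coding length and Cx3cl1 with the mean length over coding transcripts. In HD-het cells Cx3cl1 led at 200.1 ± 55.2 CPM per kb, followed by Cxcl12 at 31.3 ± 7.7, Ccl2 at 11.6 ± 2.5, Ccl7 at 4.02 ± 0.70 and Cxcl1 at 1.79 ± 0.50. These 5 were apart from each other, and no other member exceeded a mean of 0.426.

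In HD-homo cells the order was less certain. Ccl2 at 219.7 ± 155.8 CPM per kb, Cxcl1 at 101.6 ± 37.8, Ccl5 at 101.6 ± 6.6, Ccl7 at 94.7 ± 59.5 and Cxcl10 at 50.4 ± 18.1 overlapped from each to the next. They were followed by Cx3cl1 at 29.2 ± 5.1 and Cxcl12 at 14.0 ± 7.4, which were apart from their neighbors. The number of members at 10 CPM per kb or more was 4 in control, 3 in HD-het and 7 in HD-homo cells. Of 39 chemokine ligands with an annotated coding transcript, Cx3cl1 made up 26.4 ± 4.0% of the summed CPM per kb in control, 68.4 ± 8.0% in HD-het and 3.28 ± 1.15% in HD-homo libraries. Ccl2 made up 41.6 ± 3.6%, 4.01 ± 0.40% and 22.6 ± 11.9%. In HD-homo libraries Ppbp had the largest mean share at 33.6 ± 17.1%, overlapping with that of Ccl2. The shares depend on the length used. The longest coding transcript of Cxcl12 has 5627 bases with 357 coding, and that of Cx3cl1 has 3315 with 1185 coding. Cxcl12 therefore gains on Cx3cl1 with the coding length, for which no shares were computed.

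**Figure D3:**
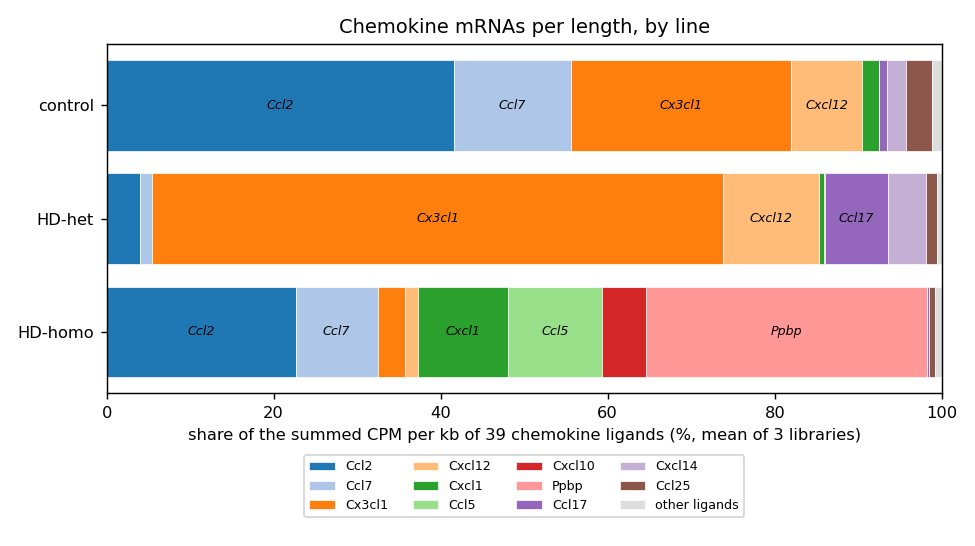
Share of each ligand in the summed CPM per kb of 39 chemokine ligands, as stacked bars of the mean of 3 libraries per line. Lengths are those of the longest coding transcript, and the shares depend on this choice. Cx3cl1 fills 68.4% of the HD-het bar and 3.28% of the HD-homo bar, where Ppbp, Ccl2, Ccl5, Cxcl1 and Ccl7 take most of the length.

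Replicates of the same line differed by gene. HD-homo replicate 2 held 2.98 times the mean Ccl2 level of the other HD-homo libraries, 2.66 times for Ccl7, 1.82 times for Cxcl1 and 1.78 times for Cxcl10, but 1.07 times for Ccl5 and 0.547 times for Cxcl12. Among all tested genes 4.23% were at 1.5 times or more in this library and 4.32% were at 0.667 times or less. Rel, an NF-kappaB subunit, was at 1.63 times in the same library, and Irf7, an interferon regulatory factor, at 0.482 times. HD-homo replicate 3 held 2.32 times the Cxcl12 and 2.18 times the Ppbp of its fellow libraries, but 0.336 times the Ccl2. Rel and Irf7 were picked for this comparison after their values were seen, and their part in the spread of the chemokines was not tested.

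**Figure D4:**
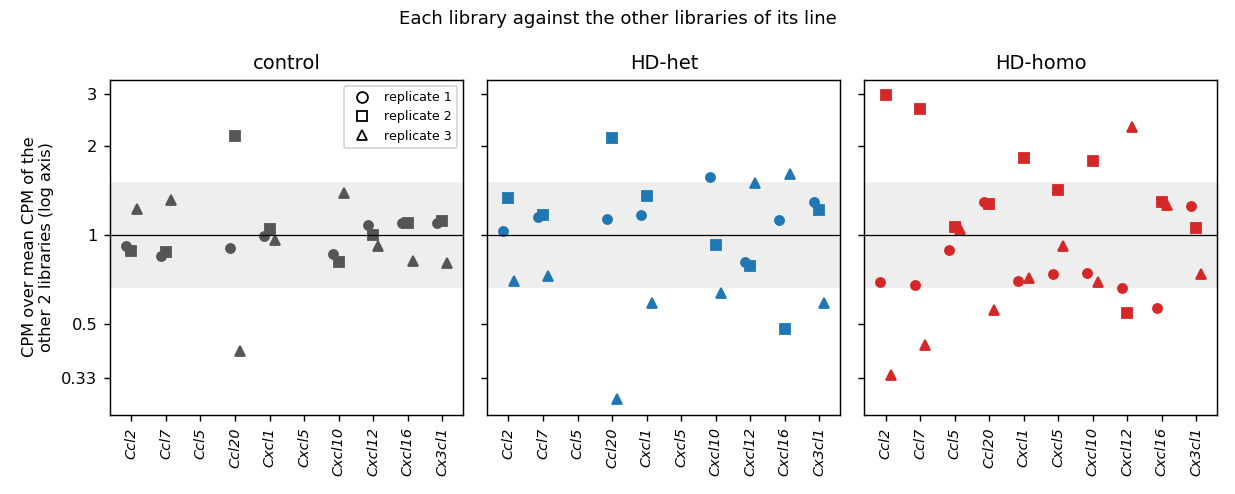
CPM of each library divided by the mean of the other libraries of its line (log axis), with the shape for the replicate number and a gray band from 0.667 to 1.5. Genes with a library at 3 counts or fewer in that line are left out. HD-homo replicate 2 reaches 2.98 for Ccl2 and 2.66 for Ccl7, while the HD-homo points of Ccl5 lie between 0.891 and 1.07.

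Of the other 30 chemokine ligands, 9 had 0 counts in every library and 7 were tested. In HD-homo against control cells 3 of these were higher (Ppbp, Ccl9 and Cxcl11) and 4 were lower, beside 29.6% and 28.9% of all tested genes, and Ppbp and Cxcl11 owe their place among the 7 to the HD-homo libraries. In HD-het against control cells 2 were higher and 3 lower, beside 33.8% and 31.4% of all tested genes. Ccl28, counted as lower in both comparisons, would not have been kept by the filter without the control libraries, where it was highest. Without control replicate 2 only 4 of the 7 passed in HD-homo against control cells. Cxcl14, an epithelial and neural chemokine, had 340, 351 and 255 counts in control, 797, 669 and 893 in HD-het and 2, 1 and 1 in HD-homo libraries, at least 117-fold lower in HD-homo cells than in control cells (edgeR adjusted p = 9.8e-10). Ccl17, a ligand of Ccr4, was at 1.12, 1.31 and 1.01 CPM in control, 11.4, 10.8 and 10.5 in HD-het and 0.552, 0.876 and 0.716 in HD-homo libraries. That was 9.51-fold higher in HD-het cells than in control cells (edgeR adjusted p = 2.5e-08). Ccl25, a ligand of Ccr9, was 2.03-fold lower in HD-het cells than in control cells (edgeR adjusted p = 5e-06) and 1.18-fold lower in HD-homo cells (0.047). Elavl1 overlaps Ccl25 on the opposite strand, at means of 167 CPM in control, 137 in HD-het and 141 in HD-homo cells. Reads of Elavl1 may not be told apart from those of Ccl25 if counting did not use strand. The same holds for Art3 and Gm2673, which overlap Cxcl11, and for Fyco1, which overlaps the receptor gene Cxcr6.

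Several leukocyte receptors of these ligands were at or near 0 in all lines. Ccr6 had 0 counts in every library, Cxcr3 had a single count over all 9 libraries, and Cx3cr1 had between 1 and 5 counts and Ccr2 at most 5 per library. Of 19 receptors 6 were tested, and those with a mean of at least 1 CPM in some line were Ccr1, Cxcr2, Cxcr4 and Cxcr6. Cxcr2, the receptor of Cxcl1, Cxcl5 and Ppbp, was at 1.13 to 2.10 CPM in all libraries with overlapping lines (edgeR adjusted p = 0.23 for HD-homo and 0.80 for HD-het against control cells). Ccr1, which binds Ccl5, Ccl7 and Ccl9, had 3, 3 and 0 counts in control, 34, 33 and 17 in HD-het and 247, 111 and 174 in HD-homo libraries, so that HD-homo cells had at least 54.2-fold more than control cells (edgeR adjusted p = 5.8e-06).

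Cxcr6, the receptor of Cxcl16, had 80, 85 and 93 counts in control, 28, 22 and 17 in HD-het and 0, 0 and 1 in HD-homo libraries. It was 4.14-fold lower in HD-het (edgeR adjusted p = 1.9e-05) and at least 32.3-fold lower in HD-homo cells than in control cells (edgeR adjusted p = 8e-08). The receptors of Cxcl12 stood in opposite orders in the lines. Cxcr4, which signals, had 7, 22 and 14 counts in control, 148, 109 and 139 in HD-het and 0, 3 and 2 in HD-homo libraries, 8.67-fold higher in HD-het and at least 5.33-fold lower in HD-homo cells than in control cells (edgeR adjusted p = 0.0010 for the latter). Cxcr4 was kept by the filter through its HD-het libraries, so no p is given for the former. Ackr3, which takes up Cxcl12 without G protein signaling, was at 24.7, 23.7 and 24.1 CPM in control, 4.17, 4.51 and 3.65 in HD-het and 218, 227 and 182 in HD-homo libraries. It was 8.67-fold higher in HD-homo (log2 fold change 3.12 ± 0.09, SE; edgeR adjusted p = 3e-10) and 5.87-fold lower in HD-het cells than in control cells (-2.55 ± 0.11; edgeR adjusted p = 1e-08). No other atypical receptor was tested.

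**Figure D5:**
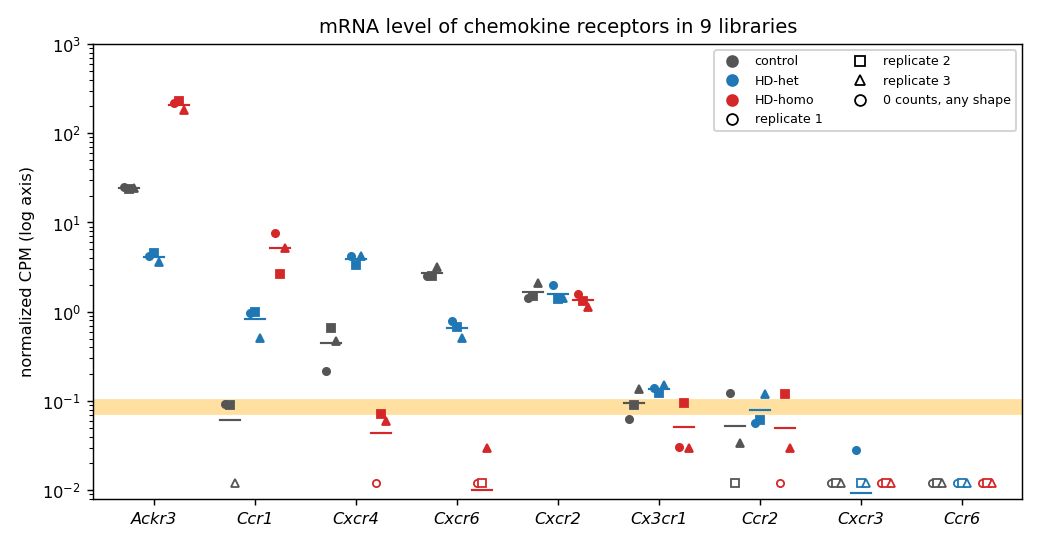
Normalized CPM (log axis) of chemokine receptors in each library, drawn as in the plot of chemokine levels, with open symbols at the bottom for 0 counts and a band for 3 counts. Ackr3 is highest in HD-homo libraries at 182 to 227 CPM, Cxcr4 is highest in HD-het libraries, Cxcr6 is highest in control libraries, and Cxcr3 and Ccr6 lie at or near 0 throughout.

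Of 19 genes that act on chemokine transcription 18 were tested, and 13 were higher and 1 was lower in HD-homo cells than in control cells, with a median log2 fold change of 0.42 against 0.01 over all tested genes, of which 29.6% were higher and 28.9% lower. Irf7 was 124-fold higher (edgeR adjusted p = 2.9e-07), Irf5, another interferon regulatory factor, 8.26-fold higher (edgeR adjusted p = 1.1e-08), and Irf3 was the lower gene, by 1.36-fold (edgeR adjusted p = 5.4e-04). In HD-het against control cells 8 were higher and 8 lower, beside 33.8% and 31.4% of all tested genes. Nfkb2, an NF-kappaB subunit, had the largest decrease, 2.44-fold (edgeR adjusted p = 7.7e-08), and Irf7 the largest increase, 9.39-fold (edgeR adjusted p = 0.0012).

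Short-lived chemokine mRNAs carry AU-rich elements, built on the pentamer AUUUA, in the 3′ untranslated region, where Zfp36 proteins bind and speed decay. The pentamer was counted in the longest coding transcript of 19732 genes, where the median was 1.35 per kb. Cxcl1 had 7 copies in 592 bases, a density reached by 0.487% of genes, and Ccl20 had 9 in 1050 bases, reached by 1.49%. Ccl7 had 4.60 per kb, Cxcl5 4.50, Ccl2 3.64, Cxcl10 3.01 and Cxcl16 1.41, all above the median, while Cxcl12 had 0.771, Cx3cl1 0.534 and Ccl5 none in 199 bases. Of 9 regulators of such mRNAs, 1 was higher and 2 were lower in HD-homo cells than in control cells, and 1 was higher and 5 lower in HD-het cells. Over all tested genes 58.6% passed in the former comparison and 65.1% in the latter. Zfp36l1 was 2.49-fold higher in HD-homo cells (edgeR adjusted p = 1.5e-06) and Khsrp, a decay-promoting protein, 1.68-fold lower (edgeR adjusted p = 1.2e-06). In HD-het cells Zfp36 was 1.59-fold higher (edgeR adjusted p = 6.4e-04) and Zfp36l2 2.03-fold lower (edgeR adjusted p = 5.6e-07).

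Among 6 proteases that cut chemokines, 5 were tested, and 1 was higher and 2 were lower in HD-homo cells than in control cells, where 58.6% of all tested genes passed. Mmp2, a gelatinase that trims Ccl7 and Cxcl12, was at 14.4, 15.5 and 16.3 CPM in control, 32.9, 31.4 and 37.6 in HD-het and 158, 133 and 169 in HD-homo libraries. It was 9.95-fold higher in HD-homo cells than in control cells (edgeR adjusted p = 5e-10) and 2.21-fold higher in HD-het cells (edgeR adjusted p = 2.7e-06). Mmp14, which activates Mmp2, was 1.62-fold lower in HD-homo cells (edgeR adjusted p = 1.4e-05). In HD-het cells, where 65.1% of all tested genes passed, 4 were higher and Mmp9 was 2.25-fold lower (edgeR adjusted p = 0.026) with overlapping libraries, and this count of 5 called proteases was 3 without control replicate 1 or without HD-het replicate 2.

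The genes whose levels ran most closely with each member over the 9 libraries were found by Pearson's r of log2(CPM + 1), a description in which the 3 lines form separate clusters. Ccl5 ran with Slc43a3 and Eps8l2 (r = 0.9997 for both), Cxcl10 with Aspn (0.9986) and Stard8 (0.9985), and Cxcl1 with Sash1 (0.9956) and Grb10 (0.9950). Ccl2 and Ccl7 shared Lrrc8d (0.9944 and 0.9974), beside Dnajc12 for Ccl2 (0.9960) and Arhgap18 for Ccl7 (0.9944). Cx3cl1 ran with Stard10 (0.9964) and Camta1 (0.9955), Cxcl16 with Dlx2 (0.9885) and Ppwd1 (0.9865), and Cxcl12 with Eef2k (0.9804) and Donson (0.9719). For the members of low counts the closest genes were Phldb3 (0.9885) and Lrrc1 (0.9755) for Cxcl5 and Gm14391 (0.9435) and Zfp59 (0.9238) for Ccl20.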

How the data were processed

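Gene counts of 9 RNA-seq libraries (3 per line) were used. Per the labels, total RNA was poly(A)-selected and directional libraries were made, and the submitters' processing notes name cutadapt, Bowtie 1.1.2, RSEM 1.3.0 and DESeq2 with GRCm38.p5 (mm10). The authors deposited raw counts by gene symbol without normalization, as whole numbers, which may be rounded estimates where RSEM made them. The table lists 26 genes under dates and 2 names a second time, and no row was left out.

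Counts were fitted in R 4.3.3 with edgeR 4.0.16 (filterByExpr with minimum count 10, TMM, quasi-likelihood test, all 9 libraries, 1 mean per line), and p values were adjusted by Benjamini-Hochberg over 13508 tested genes in each comparison, with a threshold of 0.05. All 10 chemokines passed the filter, Ccl5 only through HD-homo libraries. Cxcl5 would not have been kept without the HD-homo libraries, and Ccl20 not without the HD-het libraries. Folds are ratios of mean normalized CPM, or lower bounds against a floor of 3 counts per library where no library of a line exceeded 3 counts. Floors cover counting error only. The scripts were tested on simulated data. The methods read here state no design for a test of these libraries.

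The members and gene lists were chosen with earlier results of these data known. Beside the members, text names other ligands and receptors with at least 1 CPM in any line, the extreme called genes of each other list and those changed at least 8-fold, and the 2 closest genes per member. Other receptors, Rel, Adam10, Adam17, Cxcl11, Ccl28, Elavl1, cell type markers and cluster neighbors were added after their values were seen. A gene of the receptor list is not reported here. Per-length levels, positions and transcripts used GENCODE vM21, and promoters RefSeq (GRCm38.p6), matched by symbol, with 5 of 10 members found. Alternatives were DESeq2's size factors, library totals only, the Wald test of DESeq2 1.42.0, no filter, at least 10 counts in every library, only the lines compared, a replicate block, a prior count of 2, other length measures, and each library left out.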

Additional observations from a re-analysis of the deposited data

Results flagged for a closer look

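The chemokines Ccl2, Ccl7, Cxcl1, Cxcl16 and Cx3cl1 changed in opposite directions against control cells in the HD lines, and the direct comparison of HD-homo with HD-het cells passed the threshold for each. Ccl2, Ccl7, Cxcl1 and Cxcl16 were higher in HD-homo and lower in HD-het cells than in control cells, with log2 fold changes of HD-homo against HD-het cells of 4.25, 4.56, 5.82 and 2.75 (edgeR adjusted p = 6.6e-06, 1.9e-06, 1.2e-08 and 1.2e-05). Cx3cl1 was lower in HD-homo and higher in HD-het cells than in control cells, and its log2 fold change of HD-homo against HD-het cells was -2.78 (edgeR adjusted p = 3.1e-07). The increases of Ccl2 and Cxcl16 over control cells did not pass without HD-homo replicate 2 (edgeR adjusted p = 0.12 and 0.059), nor without control replicate 1 or 2 for Ccl2 (0.070 and 0.074) and control replicate 3 for Cxcl16 (0.060). Between the HD lines 71.6% of all tested genes passed. Genotype cannot be told apart from line, since each genotype is 1 line, and the comparisons with control cells share their control libraries.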

How the results depend on the processing

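No direction of a chemokine's fold change reversed under any alternative run. With at least 10 counts in every library, a filter that keeps only Ccl2, Ccl7, Cxcl1, Cxcl12 and Cx3cl1, the number of chemokines called was 4 in HD-homo against control and 5 in HD-homo against HD-het cells, in place of 7 and 10. Leaving out each library in turn gave 5 to 8, 6 to 8 and 9 to 10 called chemokines in HD-homo against control, HD-het against control and HD-homo against HD-het cells, and 6842 to 8068, 7865 to 9216 and 8977 to 9675 called genes. Deviations of same-numbered libraries from their line means correlated at r from 0.0304 to 0.29 across genes, not above 0.1 in every pair. The labels do not say what same-numbered libraries share, so the main fit has no replicate term. With the replicate block 8, 9 and 10 chemokines and 8372, 9160 and 9938 genes were called, in place of 7910, 8797 and 9666 genes. Cxcl12 (edgeR adjusted p = 0.027) was gained in HD-homo against control cells. In HD-het against control cells Cxcl10 (edgeR adjusted p = 0.038), Cxcl12 (0.044) and Ccl20 were gained. No p is given for Ccl20, which the filter would not have kept without the HD-het libraries. Every library correlated best with its own number, a hint from the data and not from the design. Cxcl10 in HD-het against control cells also passed by DESeq2's Wald test (adjusted p = 0.035), and Cxcl12 with only these lines fitted (edgeR adjusted p = 0.0023). Cxcl10 passed in the latter fit too, but the filter would not have kept it there without the HD-het libraries, so no p is given. The cause was not tested. Other length measures left the numbers of chemokines at 10 CPM per kb within 1 of the values given, and with the coding length the order changed in 3 of 45 pairs in control, 0 in HD-het and 4 in HD-homo cells, and with the mean length in 2, 1 and 1. Depth limits Ccl5 outside HD-homo cells and Cxcl5 and Ccl20 in every line.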
